A study of Drosophila melanogaster with 2 samples.

Results

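The mitochondrial cytochrome and ATPase genes of the fruit fly Drosophila melanogaster are mt:CoI, mt:CoII and mt:CoIII, mt:Cyt-b, and mt:ATPase6 and mt:ATPase8. They were chosen by name, as 6 of the 37 genes of the mitochondrial genome. In the list of peaks that passed the authors' reproducibility threshold (the thresholded list), 12 of 1290 peaks had their summit in these genes, out of 22 on the mitochondrial genome. The samples were chromatin from whole embryos of both sexes, pooled and aged 0 to 16 h, of a transgenic line that stably expresses TFAM with GFP fused to its C terminus. Sonication gave fragments of 200 to 800 bp. The descriptions of the samples name an anti-GFP antibody for the precipitation, while the antibody field names TFAM. There were 2 samples of this 1 group, biological replicates 3 and 4 from separate biosamples, with a peak list each, beside a list called on both together (the pooled list) and the thresholded list. The promoter of the transgene is not given in the labels, and no untagged line or control list was analysed here. No comparison between conditions was therefore made, and no test was run, because bases and summits of 1 molecule are not replicates.

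TFAM is a protein with HMG boxes that binds, bends and compacts mitochondrial DNA into nucleoids, and it also takes part in mitochondrial transcription in mammals. The genes studied here encode proteins of the last steps of respiration. Cytochrome b carries electrons within complex III, cytochrome c oxidase (complex IV) passes them to oxygen, and ATP synthase uses the resulting proton gradient.

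All 6 genes stood under these names in the annotation, all on the + strand. On dm6 they lay at M 1474 to 3009 (mt:CoI), 3083 to 3767 (mt:CoII), 3907 to 4068 (mt:ATPase8), 4062 to 4736 (mt:ATPase6), 4736 to 5524 (mt:CoIII) and 10499 to 11635 (mt:Cyt-b). The ATPase genes share 7 bp with each other, and mt:ATPase6 shares 1 bp with mt:CoIII. The 6 genes together span 4976 bp, each base counted once. They are coding sequence without introns. Their FlyBase identifiers are FBgn0013674 (mt:CoI), FBgn0013675 (mt:CoII), FBgn0013676 (mt:CoIII), FBgn0013678 (mt:Cyt-b), FBgn0013672 (mt:ATPase6) and FBgn0013673 (mt:ATPase8).

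Sequence around the highest thresholded summit of each gene that had one is shown first, the summit with 50 bp on each side, read on the + strand of the RefSeq mitochondrial sequence of dm6. Capitals mark the bases from the nearest summit of one replicate to that of the other, so a short capital stretch means that the replicates placed the summit close together. The last sequence is the middle of mt:ATPase8, which no list covered, and its capitals mark the longest run without G or C inside the window. The windows are chrM:1768-1868 for mt:CoI, chrM:3537-3637 for mt:CoII, chrM:4721-4821 for mt:CoIII, chrM:10708-10808 for mt:Cyt-b and chrM:3937-4037 for mt:ATPase8.
mt:CoI: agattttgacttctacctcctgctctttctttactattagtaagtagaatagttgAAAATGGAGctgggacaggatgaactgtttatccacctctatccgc
mt:CoII: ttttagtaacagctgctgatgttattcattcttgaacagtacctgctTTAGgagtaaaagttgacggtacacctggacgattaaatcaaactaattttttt
mt:CoIII: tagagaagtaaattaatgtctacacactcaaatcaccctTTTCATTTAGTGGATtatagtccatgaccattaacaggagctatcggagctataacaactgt
mt:Cyt-b: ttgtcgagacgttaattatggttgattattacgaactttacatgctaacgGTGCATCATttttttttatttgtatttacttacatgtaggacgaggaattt
mt:ATPase8: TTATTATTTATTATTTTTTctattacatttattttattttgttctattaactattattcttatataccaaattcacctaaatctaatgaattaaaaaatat

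In these windows A+T made up 60.4% in mt:CoI, 66.3% in mt:CoII, 64.4% in mt:CoIII and 69.3% in mt:Cyt-b, against 87.1% in the mt:ATPase8 window. The longest run without G or C inside the window was 5 bases in mt:CoI, 10 in mt:CoII, 9 in mt:CoIII and 14 in mt:Cyt-b, against 19 in mt:ATPase8. The window edge cut the runs of mt:CoII and mt:ATPase8, which were 16 and 23 bases long in full. Elsewhere in the genes, bases under a thresholded peak held runs of up to 22 bases in mt:CoI, 20 in mt:CoIII and 21 in mt:Cyt-b. The contrast thus holds for these windows and not for the whole genes. The capitals span 4 bases in mt:CoII, 9 in mt:CoI and in mt:Cyt-b, and 15 in mt:CoIII.

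Each peak carries the authors' own score, called its value here. The score has no fixed range, its scale differs between lists, and no read counts are in the files, so the depth is unknown. The 22 mitochondrial peaks of the thresholded list were identical in position and value to the 22 of the pooled list. All 12 member summits of the pooled list were kept by the threshold, where 14.8% of all pooled regions overlapped a kept peak. The q-value was 0.05 or less for all 12 member summits in the pooled list, beside 25.8% of all its regions, and for all 12 in the thresholded list, beside 100% of its peaks. The same held for all 11 member summits in replicate 3, beside 23.9% of all its regions, and all 11 in replicate 4, beside 12.8%. In the thresholded list 10 of the 12 had values above the highest nuclear peak (837), and so had all 10 summits in other mitochondrial genes, the lowest of which was at 3266. The member summits below it were 1 in mt:CoI (810.2) and 1 in mt:CoIII (696). In the thresholded list on the older dm3 build, 2 of the 4 mitochondrial peaks were above its highest nuclear peak (838). The highest mitochondrial value there was 1479.

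mt:CoI, which encodes the catalytic subunit of cytochrome c oxidase, was covered end to end in every dm6 list. Its highest summit had a value of 7363 in replicate 3 and 13619.8 in replicate 4, and 21068 in the thresholded list. It lay 357 bp from the gene's first base in replicate 3 and 349 bp in replicate 4. It was the highest of all 13455 regions of replicate 4 and the fourth highest of replicate 3.

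The other summits of mt:CoI were placed differently by the replicates. Replicate 3 had summits at 560, 1183 and 1385 bp from the gene start, with values of 131.6, 3019.96 and 1429. Replicate 4 had summits at 1014 and 1306 bp, with values of 3132 and 2088. The replicate 3 summit of value 131.6 had no replicate 4 summit nearer than 211 bp, and it ranked 132 in its list, below the highest nuclear peak (362). The downstream part of the gene thus carried summits in both replicates, but they differed in place by 79 to 169 bp.

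mt:CoII encodes the subunit that takes up electrons from cytochrome c. It held 1 summit in each list, and the replicates placed it 3 bp apart, at 501 bp in replicate 3 and 504 bp in replicate 4 from the gene start. The value was 7410 in replicate 3, the second highest on the mitochondrial genome, and 12328 in replicate 4, the third highest. Coverage of the gene was broken near its 5' end. The mt:CoI region reached 40 bp into it, the next region began at M 3253, and the 130 bp between (M 3123 to 3252) lay under no thresholded peak. The covered share was 83.4% in replicate 3 and 77.5% in replicate 4 (mean 80.4% ± 4.13, SD, n = 2).

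mt:CoIII encodes the remaining mitochondrial subunit of the oxidase core and was also covered end to end in every dm6 list. Its first summit lay close to the start of the gene, at 24 bp in replicate 3 and 38 bp in replicate 4, with values of 4441 and 8319.7. Replicate 3 had further summits at 400 bp (4543) and 607 bp (797). Replicate 4 had them at 259 bp (4033), 501 bp (4135) and 706 bp (1115). The first summit was the highest of the gene in replicate 4, while in replicate 3 the summit at 400 bp was 1.02 times as high as the first. Apart from the first, no mt:CoIII summits of the replicates lay closer than 99 bp.

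mt:Cyt-b encodes cytochrome b and was covered over 96.7% of its length in replicate 3 and 95.7% in replicate 4 (mean 96.2% ± 0.684, SD, n = 2). Its 3 summits were the most alike in position of any member with several: they lay at 267, 473 and 818 bp in replicate 3, and at 259, 458 and 817 bp in replicate 4. The outer summits had values of 7384 and 4308 in replicate 3, and 10999 and 6231 in replicate 4. The middle summit did not follow them, with 1715 in replicate 3 and 55.4 in replicate 4. In replicate 4 it ranked 1018 among all regions and was the only member summit above the lowest q-value of its list (0.0162 against 0.0130).

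**Figure D1:**
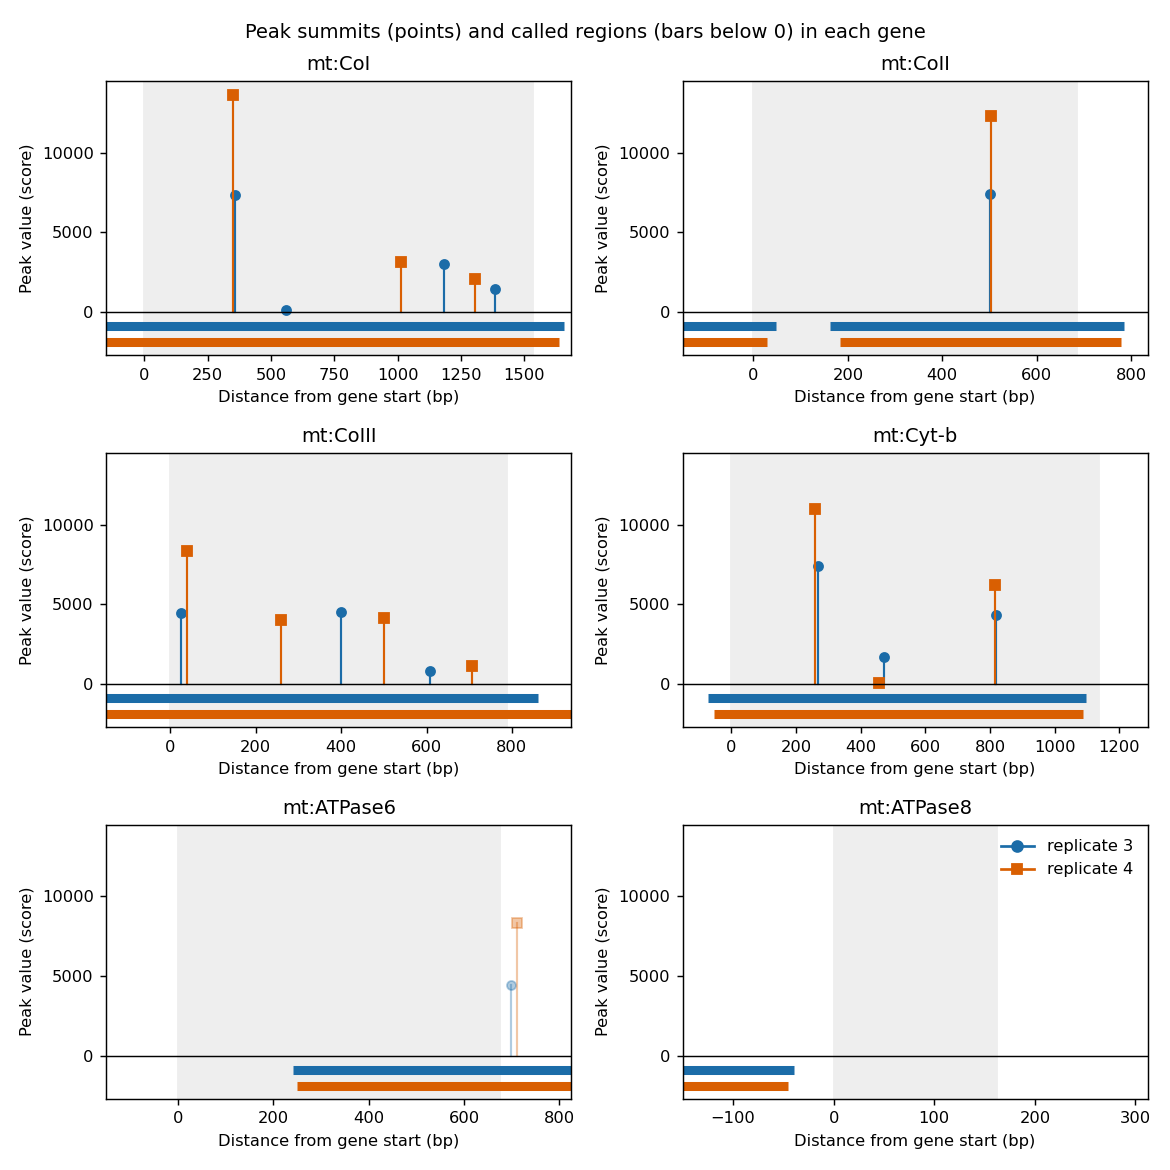
Peak value (score, linear axis) against distance from the first base of the gene (bp), for replicate 3 (blue circles) and replicate 4 (orange squares), with called regions as bars below 0 and the gene shaded grey. In mt:CoI, mt:CoII and mt:Cyt-b the highest summits of the replicates stood within 8 bp of each other, while mt:ATPase8 held neither a summit nor a region, and the pale points beside mt:ATPase6 belong to mt:CoIII.

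The ATPase genes held no summit in any dm6 list. mt:ATPase6 encodes the membrane subunit of ATP synthase through which protons pass, and its downstream part lay under the region that also covers mt:CoIII. That region began at M 4303 in replicate 3, 4312 in replicate 4 and 4304 in the thresholded list, and 64.3% of the gene was covered in replicate 3 and 63.0% in replicate 4. mt:ATPase8, which encodes a small subunit of the same enzyme, was not covered at any of its 162 bp in any list. The uncovered stretch ran from M 3868 to 4303 in the thresholded list (436 bp), with an A+T share of 81.0%. The lists of the replicates and the pooled list hold background regions as well as peaks, and none of these had its summit in the stretch either.

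The highest value per gene ordered mt:CoI, mt:CoII, mt:Cyt-b and mt:CoIII from high to low in the thresholded list and in replicate 4. In replicate 3 the order was mt:CoII (7410), mt:Cyt-b (7384), mt:CoI (7363) and mt:CoIII (4543). The order of the first 3 thus differed between replicates, and the last place of mt:CoIII was shared by all dm6 lists. Replicate 4 gave higher values than replicate 3 at each gene's highest summit, by 1.49 times in mt:Cyt-b, 1.66 times in mt:CoII, 1.83 times in mt:CoIII and 1.85 times in mt:CoI. The mt:CoIII ratio compares different summits, 362 bp apart, and the matched first summit of that gene gave 1.87. The scale of the score differs between lists, so a difference in occupancy cannot be read from these ratios.

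Of the 11 member summits in replicate 3, 8 lay within 100 bp of a replicate 4 summit. Of all regions of replicate 3, 32.4% had a replicate 4 summit that near, and of those whose q-value was at most 0.05, 70.3% did. The members' share was thus close to that of other regions with low q-values. The median distance was 15 bp, with a range of 1 to 211 bp. For the 11 replicate 3 summits in other mitochondrial genes the median was 8 bp, and 9 of them lay within 100 bp.

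The 8 pairs matched within 100 bp had a median ratio of replicate 4 to replicate 3 values of 1.48, and 7 of the 8 were above 1. The exception was the middle summit of mt:Cyt-b, with a ratio of 0.0323. The 9 matched pairs in other mitochondrial genes had a median ratio of 1.59 and ranged from 1.32 to 2.38, so all were above 1. These counts depend on the 100 bp limit, since nearest pairs just beyond it had ratios below 1, at 0.910 in mt:CoIII and 0.711 in mt:ND5, and neither pair was more than 105 bp apart. Over the 8 member pairs the values had a Spearman rho of 0.86 and a Pearson r of 0.72 on the log10 scale, as a description of summits that share 2 libraries and 4 regions. Nuclear regions also had a higher median value in replicate 4 (26.2) than in replicate 3 (18.7). These are medians over all nuclear regions of each list, and no ratios of matched nuclear summits were computed. Higher values in replicate 4 were thus not particular to the mitochondrial genome, but the matched ratios cannot be compared with nuclear ones.

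**Figure D2:**
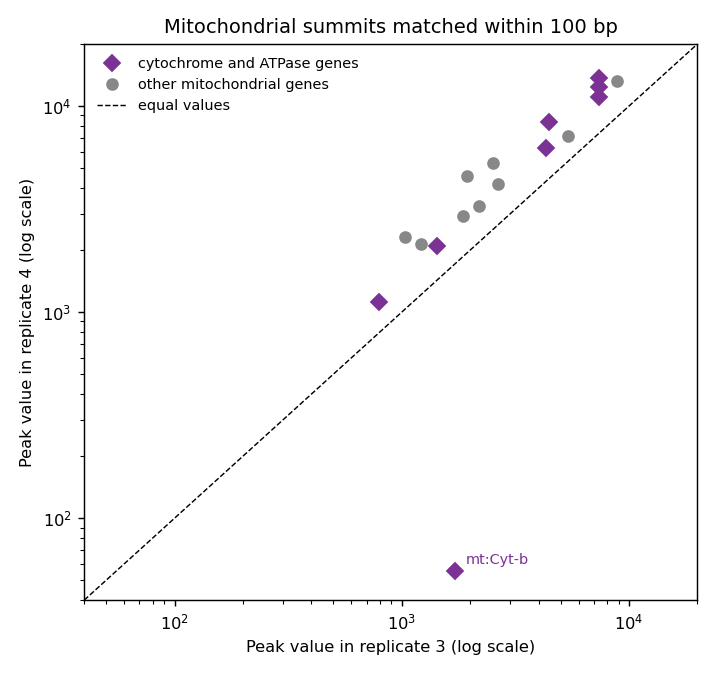
Peak value in replicate 4 against replicate 3 (both log scales) for mitochondrial summits matched within 100 bp, with 8 in the cytochrome and ATPase genes (purple diamonds) and 9 in other mitochondrial genes (grey circles). All points but the middle summit of mt:Cyt-b (1715 in replicate 3, 55.4 in replicate 4) lie above the dashed line of equal values.

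Lower summits often stood about 200 bp from a higher one. In the thresholded list neighbouring summits of mt:CoI were 199, 640 and 204 bp apart, those of mt:Cyt-b 203 and 355 bp, and those of mt:CoIII at most 241 bp. The mt:CoI summit 199 bp from the highest one had a value of 810.2, 26.0 times below its neighbour. No nuclear summits stood closer than 199 bp in any dm6 list either. The part of this shortest spacing in where the lower summits were placed was not tested.

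Together the 6 genes had 89.0% of their bases under a region in replicate 3 and 87.8% in replicate 4, a mean of 88.4% ± 0.853 (SD, n = 2). The rest of the coding part of the molecule, 9940 bp, had 42.1% and 40.9%, a mean of 41.5% ± 0.839 (SD, n = 2). The 7 complex I genes averaged 35.9% ± 1.44 and the 2 ribosomal RNA genes 51.4% ± 0.503 (SD, n = 2 each). These differences were not tested, because neighbouring bases lie under the same regions. Each SD is over pooled bases of the 2 replicate lists and does not measure the spread between genes. Among the complex I genes, opposite shifts partly cancelled. The covered share of mt:ND3 was 5.93% in replicate 3 and 87.0% in replicate 4, and that of mt:ND1 79.0% and 54.5%. The member summits had a median value of 4308 in replicate 3 and 4135 in replicate 4, against 2046 and 3737 for summits in the rest of the coding part. For the complex I genes alone the median was 2344 in replicate 3, below that of the members, and 4585 in replicate 4, above it.

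By gene, the covered share of the members ran from 0% (mt:ATPase8) to 100% (mt:CoI and mt:CoIII), so the high mean does not hold for each of them. The other protein-coding or ribosomal RNA genes with covered shares most like those of the 6 genes together were mt:ND3, mt:ND1 and mt:lrRNA. Their mean absolute differences over the 4 dm6 lists were 21.0, 27.2 and 35.8 percentage points. mt:ND3, a complex I gene, lies close downstream of mt:CoIII and was covered over 5.93% of its length in replicate 3 and 87.0% in replicate 4. These shares include bases under the next region downstream. The mt:CoIII region reached into mt:ND3 in replicate 4 and in the thresholded list, and ended before it in replicate 3. The mt:CoIII region ended at M 5597 in replicate 3 and at 5846 in replicate 4, which was the largest disagreement among the edges of the 4 member regions.

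The member regions also ran over neighbouring genes. In the thresholded list the mt:CoI region (M 1283 to 3122) covered the transfer RNA genes mt:tRNA:Cys-GCA, mt:tRNA:Tyr-GTA and mt:tRNA:Leu-TAA in full and 47 of the 66 bp of mt:tRNA:Trp-TCA. The mt:CoII region (M 3253 to 3867) covered all of mt:tRNA:Lys-CTT and 28 of the 67 bp of mt:tRNA:Asp-GTC. The mt:CoIII region (M 4304 to 5850) covered mt:tRNA:Gly-TCC in full and 243 of the 354 bp of mt:ND3. The mt:Cyt-b region (M 10433 to 11594) took in 63 of the 525 bp of mt:ND6.

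Base composition moved with coverage. The 4408 covered bases of the 6 genes were 72.1% A+T and the 568 uncovered bases 80.6%, a difference (covered minus uncovered) of -8.51 percentage points. With the regions of replicate 3 it was -9.12 and with those of replicate 4 -8.17 (mean -8.64 ± 0.670, SD, n = 2). In the rest of the coding part the difference was -7.55 percentage points, between 76.2% and 83.8%. The A+T share of the member genes ran from 70.7% (mt:CoIII) and 71.0% (mt:CoI) through 73.9% (mt:CoII), 74.1% (mt:Cyt-b) and 76.0% (mt:ATPase6) to 83.3% (mt:ATPase8). The covered share fell in nearly the same order, with mt:CoII and mt:Cyt-b exchanged. Its part in where regions were called was not tested.

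Over the 15 protein-coding and ribosomal RNA genes, the covered share in the thresholded list had a Spearman rho of -0.81 with the A+T share (Pearson r = -0.84). In replicate 3 rho was -0.86 and in replicate 4 it was -0.81. These are descriptions, since the genes share 1 molecule, the same libraries and in some cases the same region.

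**Figure D3:**
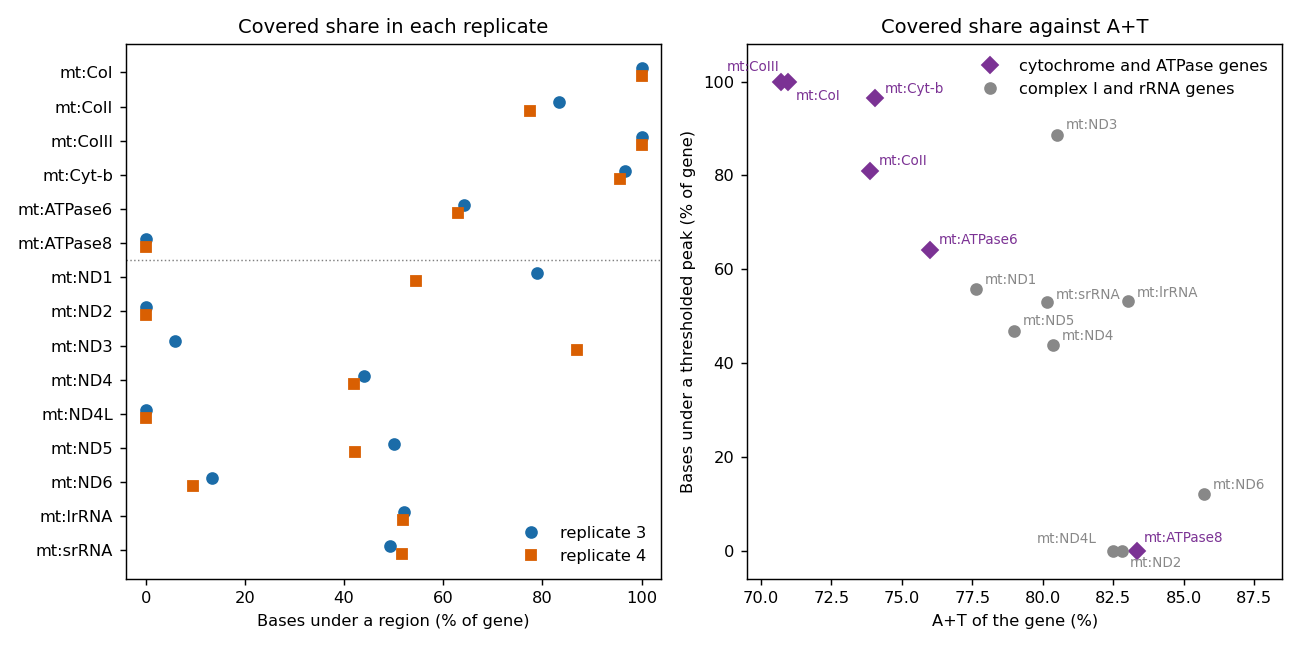
Left, share of each gene's bases under a region (%) in replicate 3 (blue circles) and replicate 4 (orange squares), with the cytochrome and ATPase genes above the dotted line and complex I and ribosomal RNA genes below it. Right, share under a thresholded peak (%) against the gene's A+T share (%), where mt:CoI and mt:CoIII stand at 100% covered with the lowest A+T and mt:ATPase8 at 0% with 83.3% A+T.

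The strand that carries the genes' coding sense was richer in T than in A in each of them. T made up 40.1% and A 30.9% of mt:CoI, 40.3% and 33.6% of mt:CoII, and 38.4% and 32.3% of mt:CoIII. In mt:Cyt-b T made up 42.0% and A 32.0%, in mt:ATPase6 43.7% and 32.3%, and in mt:ATPase8 43.8% and 39.5%. G was scarcest in the gene without coverage, at 4.32% of mt:ATPase8, against 10.1% to 14.9% in the other 5 genes.

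By codon position, A+T was lower in covered than in uncovered bases at the first position (60.1% against 77.8%) and at the second (61.9% against 70.7%). At the third position the shares were 94.1% in covered and 93.1% in uncovered bases. Runs of at least 15 bases without G or C numbered 11 wholly in the covered part (2.50 per kb). Another 4 were counted with the uncovered part (7.04 per kb), which took in any run that crossed a region edge. The mt:ATPase6 run at M 4295 to 4315 did so, since a thresholded peak began at M 4304. The rate for the uncovered part is therefore too high for runs wholly outside a peak. The longest run, 34 bp at M 3199 to 3232, lay in the uncovered gap near the start of mt:CoII.

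Within the covered genes, the highest summits stood at the less A+T-rich places. In the thresholded list the window of 50 bp on each side of the highest summit had a lower A+T share than the median window of the same gene in 4 of 4 genes. Windows centred on every base of a gene were compared, and the share with less A+T than the summit window was 1.52% in mt:CoIII, 4.23% in mt:CoI, 7.39% in mt:Cyt-b and 10.2% in mt:CoII. With the highest summits of replicate 3 it was 3.26% in mt:CoI, 5.69% in mt:CoII, 14.2% in mt:CoIII and 14.4% in mt:Cyt-b, and all 4 windows were again below the gene's median. In the thresholded list the highest summit of mt:CoI was 60 bp from the centre of that gene's least A+T-rich window (55.4%), that of mt:CoII 22 bp (60.4%) and that of mt:CoIII 1 bp (63.4%). The highest mt:CoIII summit of replicate 3 was 346 bp from that window, and the median distance over the 4 genes was 126.5 bp in replicate 3, 38.5 bp in replicate 4 and 41 bp in the thresholded list. In mt:Cyt-b the distance was 214 bp in the thresholded list, and the middle and last summits stood nearer to such windows, at 11 and 15 bp.

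The lower summits shared this only in part. Of all 12 thresholded member summits, 7 stood below the median of their gene. The mean A+T share of the 12 was 70.4%. For the 6 genes as a whole it was 73.1%, but 2 of these genes held no summit. In windows at the middle of each summit's region the mean was 71.6%, but this counts a region once for each of its summits. Counted once for each of the 4 regions, the mean at the middle was 70.3%, close to the 70.4% of the summits. Across the 12 summits the value had a Spearman rho of -0.75 with the A+T share of the window (Pearson r = -0.64 with log10 values). Among the 11 summits of replicate 3 rho was -0.61, and among the 11 of replicate 4 it was -0.43. Without the mt:Cyt-b middle summit, left out after its value was seen, rho in replicate 4 was -0.56. Over all mitochondrial summits, members included, rho was -0.58 in the thresholded list, -0.53 in replicate 3 and -0.49 in replicate 4. A negative relation was thus also found when the summits of other mitochondrial genes were counted. Windows of summits near each other overlap the same regions, so these are descriptions.

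**Figure D4:**
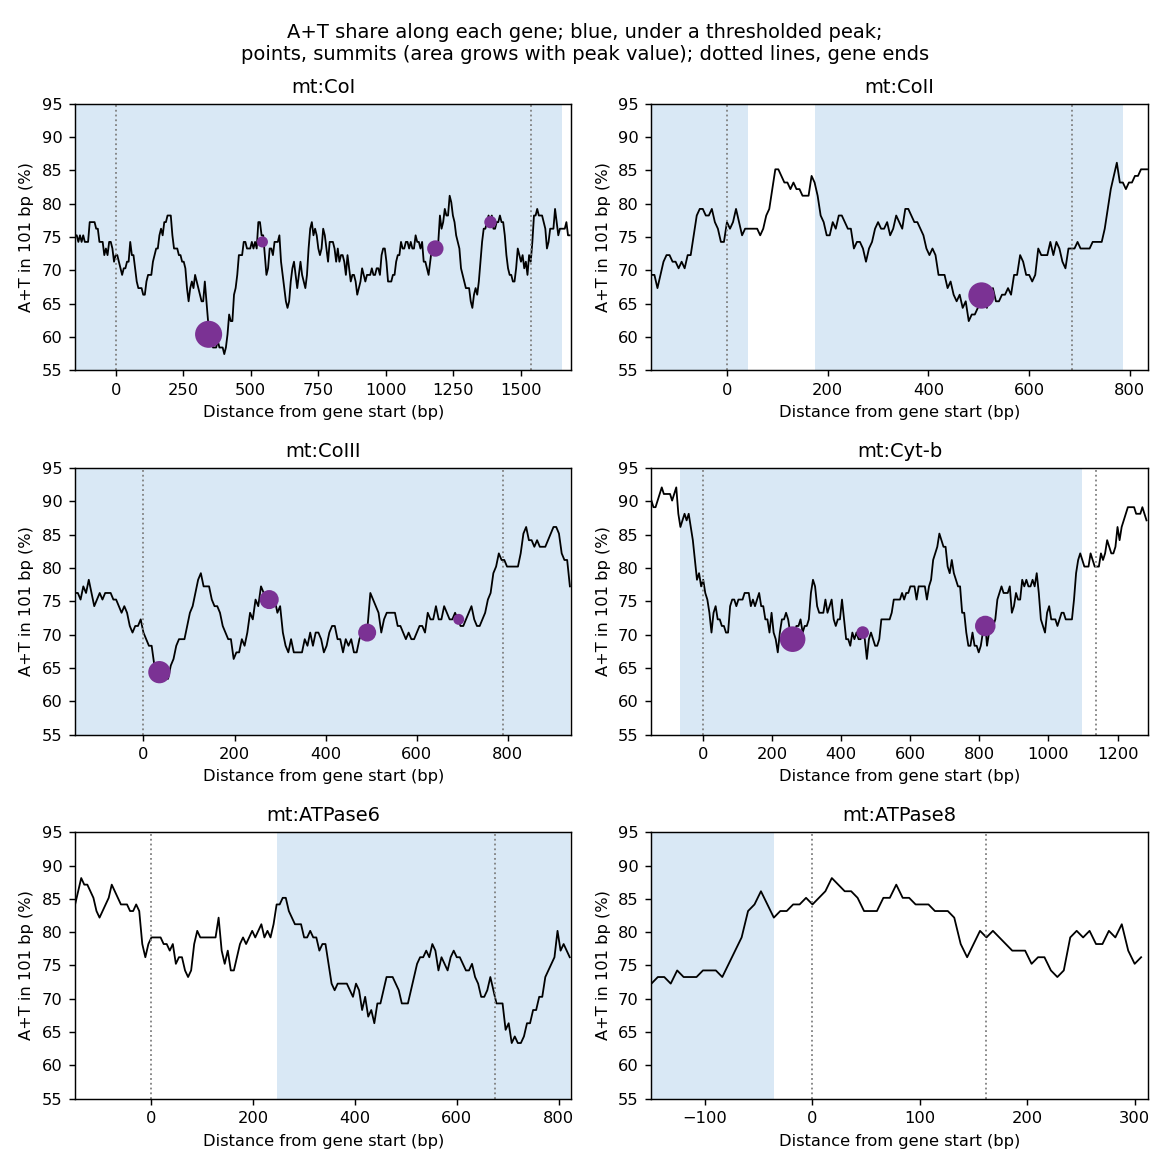
A+T share in windows of 50 bp on each side of a base (%) against distance from the gene's first base (bp) for each gene, with stretches under a thresholded peak in blue, gene ends dotted and thresholded summits as purple points whose area grows with the value. The largest points of mt:CoI, mt:CoII and mt:CoIII sit in dips of the curve, and the white stretches in mt:CoII, mt:ATPase6 and mt:ATPase8 lie where the curve is mostly above 75%. Blue stretches also rise above 75%, as to 85.1% in mt:ATPase6 and in mt:Cyt-b.

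Sequence shared with other parts of the genome was rare in these genes. Of 4690 windows of 50 bp within the 6 genes, 33 (0.704%) occurred exactly, on either strand, in another sequence of the reference, and all 33 lay in mt:CoIII between M 5045 and 5178, under a thresholded peak. In mt:CoI, mt:CoII, mt:Cyt-b, mt:ATPase6 and mt:ATPase8 no such window was found. The uncovered stretches of these genes therefore held no 50 bp window with an exact copy elsewhere in this reference. In mt:Cyt-b the uncovered stretch was 41 bp, too short for such a window, and no 36 bp window of that gene had a copy. The highest mt:CoIII summit of replicate 3, at M 5136, lay within the mt:CoIII stretch from M 5045 to 5178. The nearest summits of the thresholded list (M 5012 and 5227) and of replicate 4 (M 4995 and 5237) lay outside it. The part of the copies in this placement was not tested.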

How the data were processed

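The authors deposited, per the text descriptions of the files, peaks with background regions, called with a control alignment, once per replicate and once on both replicates, and a list kept by an irreproducible discovery rate threshold. Neither aligner nor peak caller nor their settings are given in the sources used here. Per deposited region the lists hold a score, used to describe and rank summits within a list, the −log10 of a q-value, used at a limit of 0.05, and a summit offset.

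Positions are dm6, counted from 1, and were compared with the RefSeq mitochondrial reference of 19524 bp. Genes came from Ensembl 115. A summit belongs to the gene that holds it. Coverage, distances, A+T shares and exact copies were computed with Python 3.11.15, numpy 2.4.6 and scipy 1.17.1, and the functions were tested on simulated peaks. The genes, lists and measures were chosen with earlier results of these data known. The members, the genes sharing their regions and the 3 most alike in covered share are named. Alternatives were other lists, each replicate alone, stricter peaks, other overlap rules and other windows.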

Additional observations from a re-analysis of the deposited data

How the results depend on the processing

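Of 47 recomputed values, 34 stayed within the spread between replicates or within 1.5 times a count. Many of the 34 could not differ, because the 22 mitochondrial peaks of the thresholded and pooled lists were identical. The count of 34 is therefore not a measure of robustness. Among the 34 were the 4 regions that touch the genes, under every alternative run. The share of summits kept by the threshold (100%) was also unchanged, but its alternative compared identical regions. The covered share ranged from 87.8% to 89.0% and the summit count from 11 to 11 when each replicate list was used alone. The covered share was 48.4% when only bases within 100 bp of a summit counted, since fewer bases then count. The count of summits was 7 of the 11 mitochondrial peaks above the median value, beside 12 of all 22, since fewer peaks then count. The A+T difference between covered and uncovered bases turned to 1.02 percentage points at the third codon position alone, where both parts were over 93% A+T; the cause was not tested. With replicate 3 or 4 alone it ranged from -9.12 to -8.17. The gene order by highest value had a rho with the thresholded order of 0.40 in the replicate 3 list and 1 in the replicate 4 list. The mean A+T share around summits was 71.2% with 25 bp on each side, 70.7% with 100 bp on each side, and 68.9% to 69.1% with 1 replicate. Exact copies made up 1.28% of 36 bp windows and 0% of 100 bp windows, and longer windows can only match less often. Without read counts, how far sequencing depth limits these lists is unknown. No paired analysis was possible because the samples form 1 group.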

Other observations

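The lists deposited on the older dm3 build held far fewer mitochondrial regions than those on dm6. The thresholded list had 4 on dm3 (1017 bp covered, values of 98.9 to 1479) and 22 on dm6 (8658 bp). In replicate 3 there were 5 on dm3 and 22 on dm6, and in replicate 4 there were 5 on dm3 and 21 on dm6. No dm3 genome was used here, so these regions were not assigned to genes, and every value for the cytochrome and ATPase genes above holds for dm6 alone. The difference between builds was not tested.

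Exact copies in the rest of the dm6 reference were found for 4.46% of the 50 bp windows of mt:CoIII, 2.06% of those of the A+T-rich region and 0.262% of those of the whole coding part.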
